A study of Mus musculus with 2 samples.

Results

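Immune cells of MC38 tumours from mice given the antibody N297A were compared, cluster by cluster, with those from Untreated mice. MC38 is a mouse colon carcinoma line, of which 2000000 cells were implanted under the skin of mice that carry human Fc gamma receptors. N297A is an anti-mouse GITR antibody on a human IgG1 backbone, labelled as an agonist and Fc-null, given as 2 injections of 100 µg 3 days apart. The labels call the control PBS in the treatment protocol and Untreated in the cell table; Untreated is used here. Tumours were taken 4 days after treatment, sorted for CD45, the common leukocyte antigen, pooled after hashtagging each mouse, and run as 1 10x Genomics 3' library. The design gives 3 mice per treatment, and the library holds 6 mice over 4 treatments, of which N297A and Untreated have 2 each. Neither the strain background, sex nor age of the mice is given in the sources used here.

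Members were all entries of the deposited cell table with the treatment N297A or Untreated whose barcode had at least 1000 mouse-gene UMIs in the matrix. Of 9480 entries with these treatments, 5931 passed that minimum. Of these, 11 were set aside because their leading hashtag was that of a different treatment, and 12 because the table repeats their barcode. This left 5908 cells of the 19210 entries in the table. They came to 1485 and 1420 cells in N297A mice 1 and 2, against 1484 and 1519 cells in Untreated mice 1 and 2. Mice are numbered in hashtag order, so a number shared by mice of different treatments pairs nothing. The deposited annotation divided these cells into 58 clusters of 10 cell types, each cluster lying within 1 type.

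GITR, encoded by Tnfrsf18, is a costimulatory receptor of the tumour necrosis factor receptor family. It is most abundant on regulatory T cells (Tregs) and is also carried by activated T cells and NK cells. Antibodies against it can act by signalling through the receptor or, when their Fc part binds Fc gamma receptors on macrophages, monocytes or NK cells, by removal of the cells that carry it. The N297A change removes the sugar attachment site of the IgG Fc, which such receptors need for binding. Macrophages and monocytes, the largest populations here, are diverse within one tumour. Their states include interferon-responding, chemokine-secreting, hypoxic, lipid-laden and antigen-presenting ones.

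The cells of an N297A mouse summed to 17977401 to 18628269 mouse-gene UMIs, with a median of 11990 to 12165 per cell. Those of an Untreated mouse summed to 18562307 to 19339165, with a median of 11684.5 to 11913 per cell. Of the hashtag UMIs in a cell, the leading hashtag took 96.3% at the median and 81.0% at the 1st percentile, with 0 cells under 50%. Summed markers of macrophages, NK cells, Tregs, cDC1, mregDC, pDC and CD8 T cells were highest in the cells of that name. The cDC2 and monocyte lists were highest in pDC, and the CD4 T cell list in Tregs, with which it shares genes. Every value below is set against 2 mice per group, for which a two-sided exact permutation test over mice cannot go below p = 0.333. Tests therefore come from edgeR's quasi-likelihood fit across all genes or all clusters, with 2 residual degrees of freedom. Whether each hashtag stands for a separately treated animal rests on the labels.

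The first question is whether N297A moved cells between clusters of a type. No cluster share passed the threshold: of the 54 clusters in types that hold more than 1 cluster, 0 (0%) had an adjusted p under 0.05, and 1 had an unadjusted p under 0.05. In 25 of the 54 clusters (46.3%) the shares of the N297A mice did not overlap those of the Untreated mice, 12 being higher in N297A and 13 lower. The smallest adjusted p was 0.801. The root of the common dispersion in the fit was 2.95% of a share, before a further factor fitted for each cluster. It is therefore not the whole spread between mice. Monocyte cluster 47, for example, held 0.72% and 3.91% of the monocytes of the Untreated mice.

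Macrophage cluster 10 was the cluster at an unadjusted p under 0.05. It held 4.57% and 5.16% of the macrophages of the N297A mice, against 7.0% and 7.10% in the Untreated mice. The leading genes of this cluster were chemokines and an immediate early gene: Ccl3, Ccl4, Ccl7, Egr1, Ccl2 and Cxcl2, which draw monocytes and neutrophils or mark recent stimulation. Its share differed by -0.53 on the log2 scale (SE 0.13, unadjusted p = 0.0224, adjusted p = 0.801). Among entries outside the library the share was 6.02% for N297A (95% exact interval 4.52% to 7.84%), against 5.53% for Untreated (4.16% to 7.19%), so that the order of the treatments was the other way round.

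Other macrophage clusters lay apart by group without a passing test. Cluster 14 held 5.87% and 6.02% of macrophages in the N297A mice, against 4.61% and 4.35% in the Untreated mice. Its leading genes were Il1r2, a decoy receptor for interleukin-1, and the MHC class II genes H2-Eb1, H2-Ab1 and H2-Aa, with Dnase1l3 and Napsa. Cluster 15 held 4.24% and 4.30% in the N297A mice, against 5.25% and 6.52% in the Untreated mice. Outside the library cluster 14 had 3.54% of N297A and 6.17% of Untreated macrophages, and cluster 15 had 6.61% of N297A and 5.74% of Untreated macrophages, both in the opposite order.

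The largest differences in percentage points were among cDC2, the dendritic cells that present antigen mainly to CD4 T cells. Cluster 36 held 55.3% and 68.8% of the cDC2 of the N297A mice, against 53.8% and 33.3% in the Untreated mice. Its leading genes included Cd209a and Cd209d, lectins of monocyte-related dendritic cells, and Cd7. Cluster 46 held 36.2% and 25% in the N297A mice, against 38.5% and 59.3% in the Untreated mice. Cluster 64, the only other cDC2 cluster, held 8.51% and 6.25% in the N297A mice, against 7.69% and 7.41% in the Untreated mice. A higher share of cluster 36 therefore goes with a lower share of cluster 46, and the 2 are not separate differences. Both sets of shares were apart, but the unadjusted p was 0.177 for cluster 36 and 0.129 for cluster 46, and Untreated mouse 2 lay far from the other 3 mice. Outside the library, cluster 36 had 45.8% of N297A and 53.2% of Untreated cDC2, and cluster 46 had 41.7% of N297A and 34.0% of Untreated cDC2, both in the opposite order.

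Monocyte clusters moved by smaller amounts. Cluster 1, led by Il1r2, Tmem176b and the MHC class II genes H2-Eb1 and H2-Aa, held 14.7% and 14.4% of monocytes in the N297A mice, against 13.2% and 13% in the Untreated mice. Cluster 7 held 6.19% and 9.23% in the N297A mice, against 8.37% and 11.7% in the Untreated mice, and these overlapped. Among lymphocytes, NK cluster 58 held 7.27% and 8.96% of NK cells in the N297A mice, against 6.63% and 0.926% in the Untreated mice, where Untreated mouse 2 was alone in being low. CD8 cluster 33, led by the granzyme genes Gzmc, Gzmf and Gzmd, held 19.9% and 19.3% of CD8 T cells in the N297A mice, against 25.6% and 22.0% in the Untreated mice. CD8 cluster 38, led by histone and cell cycle genes such as H1f5, Nusap1 and Rrm2, held 16.7% and 18.3% in the N297A mice, against 14.6% and 15.9% in the Untreated mice. Outside the library the order was the opposite in monocyte cluster 1 (12.7% of N297A and 15.8% of Untreated monocytes), in monocyte cluster 7 (13.5% of N297A and 8.94% of Untreated monocytes) and in CD8 cluster 38 (11.9% of N297A and 23.7% of Untreated CD8 T cells). It was the same in NK cluster 58 (7.46% of N297A and 6.30% of Untreated NK cells) and in CD8 cluster 33 (16.4% of N297A and 18.3% of Untreated CD8 T cells).

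**Figure D1:**
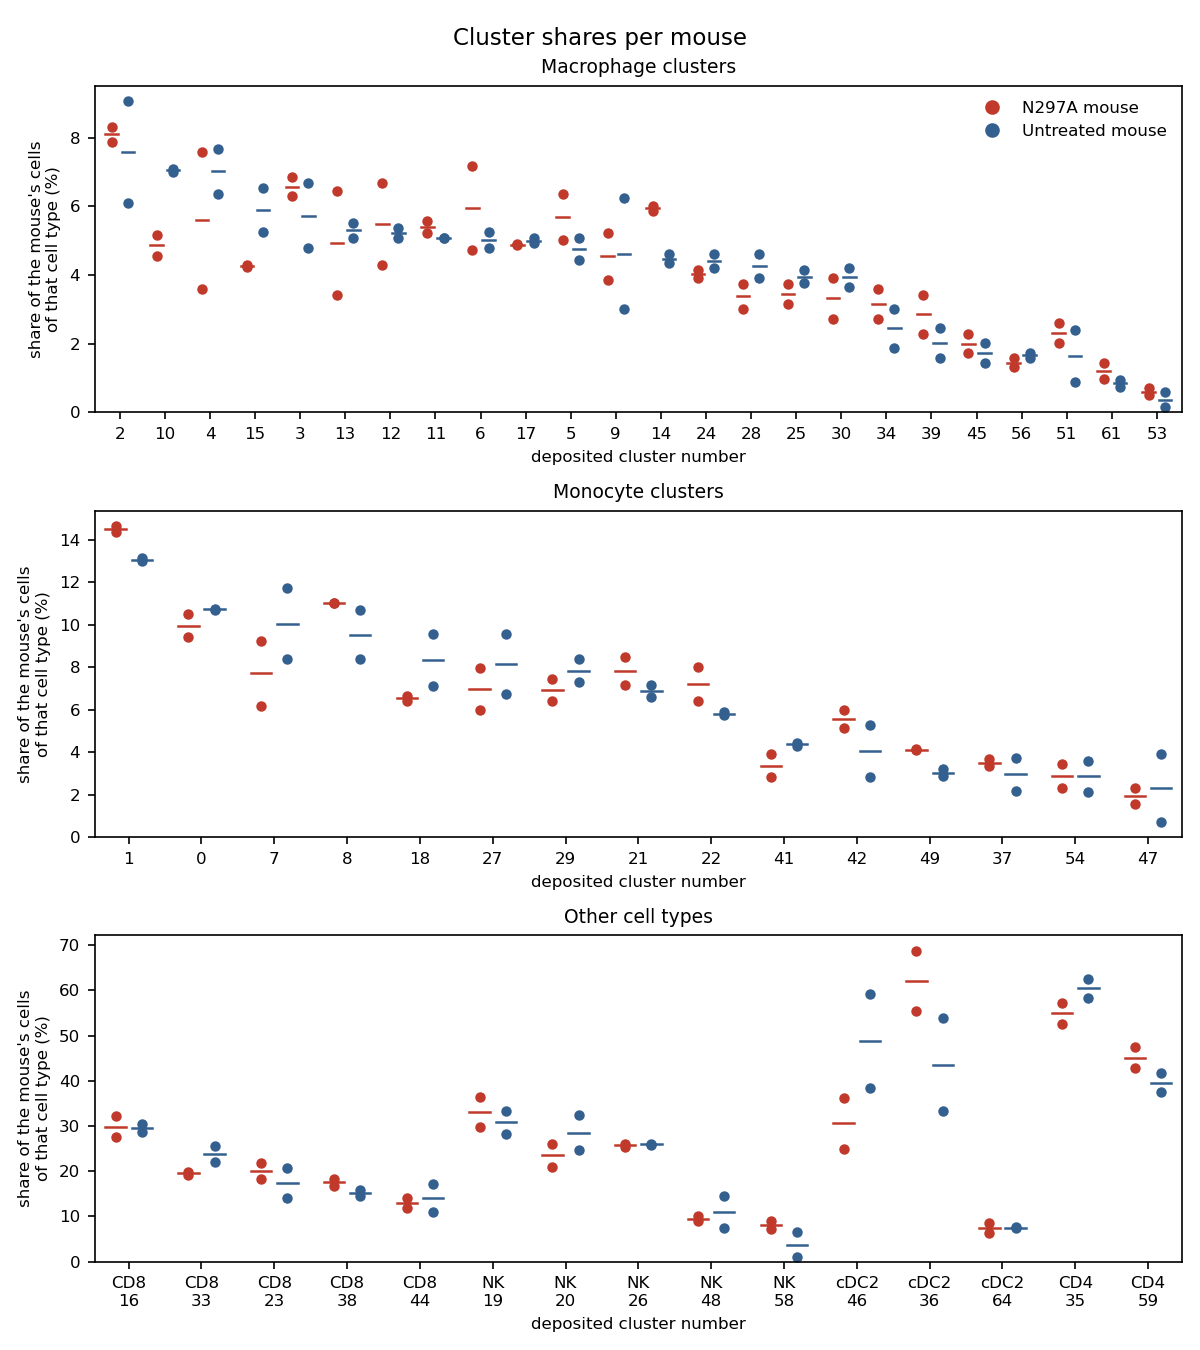
Share of each deposited cluster among a mouse's cells of that type, in percent, 1 point per mouse and a bar for the mean of 2 mice, N297A left of Untreated. In macrophage cluster 10 the N297A mice lie at 4.57% and 5.16%, below the Untreated mice at 7.0% and 7.10%, and in most clusters the groups differ by little or overlap.

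Shares of whole cell types among all cells were compared by the exact test over mice only, with no fit. Tregs, which formed 1 cluster here, made up 1.35% and 1.69% of all cells of the N297A mice, against 0.74% and 0.86% in the Untreated mice. The 2 groups were apart, with the smallest exact p these mice allow, 0.333. Among entries outside the library the order was reversed, with 0.45% of N297A and 0.62% of Untreated entries. MregDC, mature dendritic cells loaded with regulatory molecules, were 0.47% and 0.42% in the N297A mice, against 0.81% and 0.86% in the Untreated mice, and outside the library 0.56% of N297A and 0.45% of Untreated entries. The cDC2 were 3.16% and 2.25% in the N297A mice, against 1.75% and 1.78% in the Untreated mice, apart with the same exact p. Outside the library they were 2.69% of N297A and 2.66% of Untreated entries, the same direction with intervals that overlap. Of the 3 types whose mice were apart, cDC2 alone had the same direction outside. CD8 T cells ranged more widely within a treatment than between treatments, at 14.9% and 7.68% in the N297A mice, against 13.4% and 5.40% in the Untreated mice. Outside the library they were 3.75% of N297A entries (2.92% to 4.74%), against 7.43% of Untreated entries (6.25% to 8.75%), the opposite order of the means. Monocytes, at 29.4% and 27.5% in the N297A mice, against 28.2% and 37.0% in the Untreated mice, overlapped. Outside they were 36.2% of N297A entries (34.0% to 38.5%), against 27.3% of Untreated entries (25.2% to 29.4%), again the opposite order.

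Entries outside the library served as the second look at shares that the design allows. There were 1785 N297A and 1764 Untreated entries with a median of 2 UMIs in this library, and they carry no mouse, so they give a direction and a counting interval only. The N297A share lay on the same side of the Untreated share as inside the library in 24 of 54 clusters (44.4%). Among the 25 clusters whose mice did not overlap, it did so in 12. In 3 macrophage clusters the outside intervals of the treatments were apart. Cluster 2 had 5.67% of N297A macrophages (4.21% to 7.44%), against 9.26% of Untreated macrophages (7.48% to 11.3%). Cluster 6 had 3.31% (2.21% to 4.74%) in N297A, against 6.70% (5.19% to 8.49%) in Untreated. Cluster 9 had 6.49% (4.93% to 8.37%) in N297A, against 2.02% (1.22% to 3.14%) in Untreated. Inside the library the means of these 3 clusters differed in the opposite direction and the mice overlapped, for example 5.22% and 3.87% in the N297A mice, against 3.02% and 6.23% in the Untreated mice for cluster 9. The intervals cover counting error only.

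**Figure D2:**
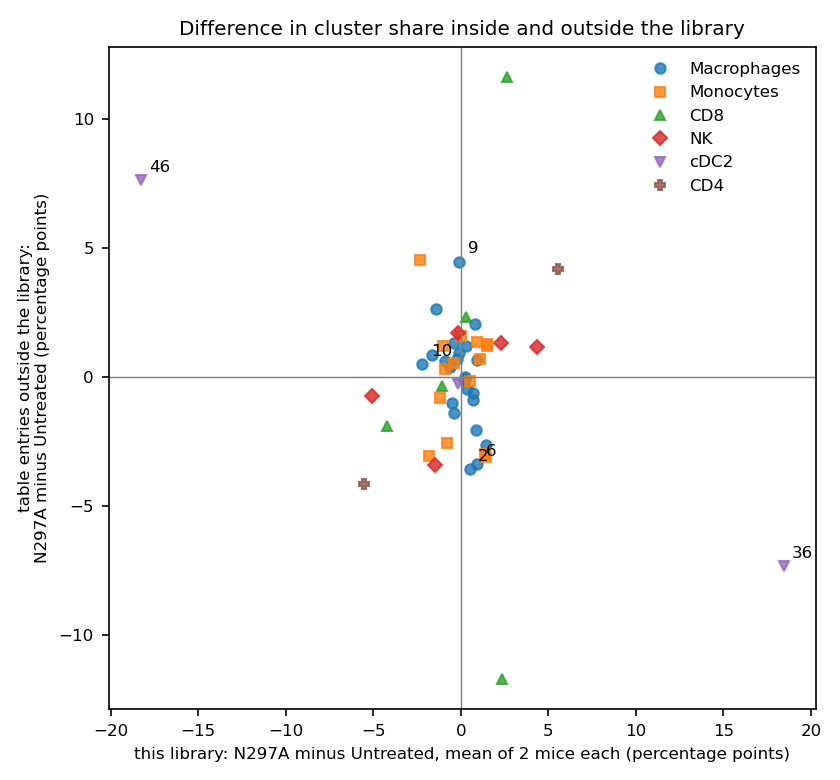
Difference in cluster share, N297A minus Untreated in percentage points, for cells of the library (horizontal axis, means of 2 mice each) and for table entries outside it (vertical axis), 1 point per cluster with the cell type as symbol. Points lie in all 4 quadrants, with 24 of 54 clusters on the same side of 0 on both axes; numbers mark the clusters described in the text.

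The second question is which genes changed within a cluster. In 28 clusters with at least 20 cells in each of the 4 mice, 15 of macrophages, 9 of monocytes, 3 of NK cells and 1 of CD8 T cells, UMIs were summed per mouse and cluster. Levels are CPM, the gene's UMIs scaled to the mouse-gene UMIs of that mouse and cluster. Between 3083 and 8107 genes were tested per cluster. Only 7 clusters had a gene past an adjusted p of 0.05, with 17 calls of 11 genes, 11 higher and 6 lower in N297A. Percentages of tested genes called were 0.122% in macrophage cluster 10, 0.0435% in monocyte cluster 1, 0.0316% in macrophage cluster 11 and 0.0241% in NK cluster 19. They were 0.0194% in monocyte cluster 18, 0.0161% in macrophage cluster 6 and 0.0148% in macrophage cluster 12. The other 21 clusters had 0 calls (0%), with 4867 of 120645 tests at an unadjusted p under 0.05, 2 calls by DESeq2 and 3 by limma-voom. Over all 162666 tests, 4.24% had an unadjusted p under 0.05, and the share by cluster ran from 2.67% to 6.26%. When all clusters were adjusted together, 4 calls remained: Arg1 in macrophage cluster 10 and in monocyte cluster 1, Il1b in macrophage cluster 10 and Cxcl10 in NK cluster 19. Clusters of 1 mouse share that mouse, so several clusters are not several replicates. In such sums, a change of level in each cell and a change in which cells the cluster holds cannot be told apart.

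**Figure D3:**
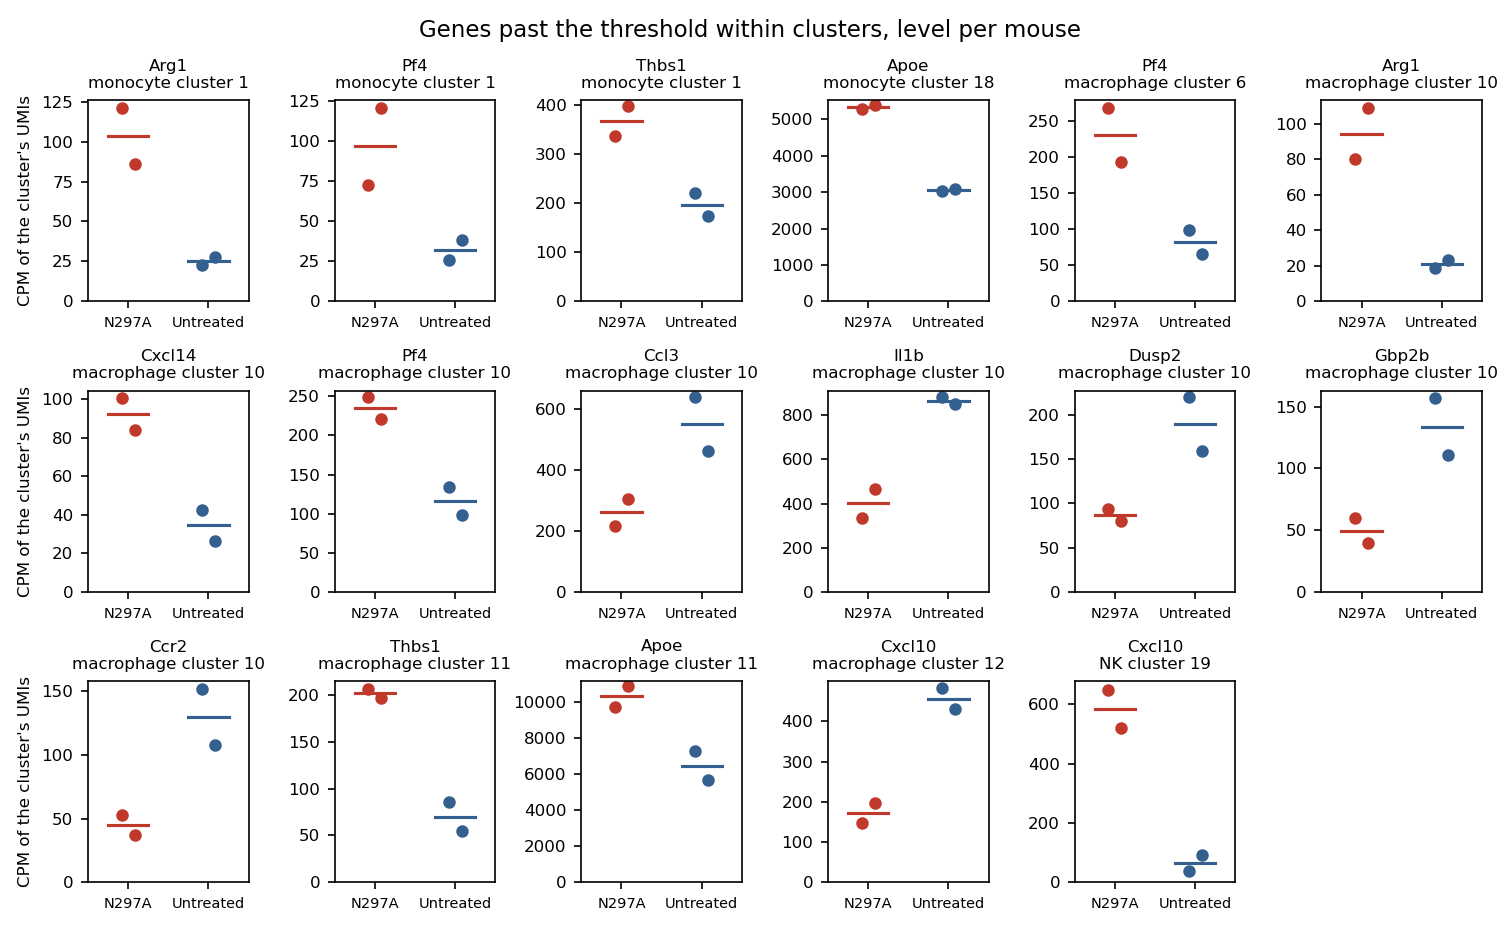
Level of each of the 17 calls in CPM, 1 point per mouse and a bar for the mean of 2 mice, N297A left of Untreated, 1 panel per gene and cluster. In every panel the 2 groups of mice are apart; Cxcl10 is higher in N297A in NK cluster 19 and lower in macrophage cluster 12.

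In monocyte cluster 1, 3 genes rose: Arg1, the enzyme that breaks down arginine and marks suppressive myeloid cells, Thbs1, the matrix glycoprotein thrombospondin-1, and Pf4, a chemokine of platelets and macrophages. The cluster held 64 and 56 cells in the N297A mice, against 55 and 73 in the Untreated mice. Arg1 had 121 and 86.0 CPM in the N297A mice, against 23.0 and 28.1 CPM in the Untreated mice. Both N297A mice were above both Untreated mice, a log2 change of 2.04 (SE 0.28, adjusted p = 0.000243). Thbs1 had 337 and 399 CPM in the N297A mice, against 220 and 173 CPM in the Untreated mice (log2 0.93, SE 0.17, adjusted p = 0.0147). Pf4 had 72.8 and 121 CPM in the N297A mice, against 26 and 38.3 CPM in the Untreated mice (log2 1.57, SE 0.29, adjusted p = 0.0147). The groups did not overlap for either gene, but 58.9% of the Pf4 UMIs of N297A mouse 2 came from 1 cell. The adjusted p was 0.126 for Pf4 without N297A mouse 2 and 0.224 for Thbs1 without Untreated mouse 2. Leaving out the 5% of cells with most UMIs gave 0.691 for Arg1 and Thbs1, and 1.00 for Pf4. Macrophage markers other than Apoe, 9 genes, summed to 8992 and 11915 CPM in the N297A mice, against 9391 and 8754 CPM in the Untreated mice of this cluster, and overlapped.

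Thbs1 was the called gene that recurred most evenly over monocytes. Its fitted log2 change was above 0 in 9 of 9 monocyte clusters, with a median of 0.88 and a range of 0.25 to 1.86. Both N297A mice were above both Untreated mice in 8 of the 9, where 14.6% of all gene-by-cluster tests in monocytes showed that pattern and 50.3% had a change above 0. In cluster 8 it had 901 and 797 CPM in the N297A mice, against 351 and 577 CPM in the Untreated mice. In cluster 29 it had 105 and 144 CPM in the N297A mice, against 38.2 and 39.5 CPM in the Untreated mice (log2 1.69, SE 0.33, adjusted p = 0.110). Cluster 0 was the one where mice overlapped, with 152 and 263 CPM in the N297A mice, against 231 and 136 CPM in the Untreated mice. Of 3520 genes tested in all 9 clusters, 3 (0.0852%) had this many non-overlapping clusters in the higher direction: Spint1, Thbs1 and Zfp106. Over all monocytes Thbs1 had 422 and 439 CPM in the N297A mice, against 258 and 245 CPM in the Untreated mice, which did not pass the threshold (log2 0.80, SE 0.09, adjusted p = 0.0516). The calls over whole monocytes numbered 0 of 10774 genes (0%), with 381 at an unadjusted p under 0.05.

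Macrophage cluster 11 was led by Cox4i2, Aldoc, Bnip3, Arg1 and Slc16a3, genes of the response to low oxygen and of glycolysis together with arginase. Thbs1 and Apoe rose there. Thbs1 had 206.5 and 196 CPM in the N297A mice, against 85.2 and 54.5 CPM in the Untreated mice (log2 1.49, SE 0.24, adjusted p = 0.0122). Apoe, the main lipid carrier of macrophages, had 9727 and 10855 CPM in the N297A mice, against 7254 and 5653 CPM in the Untreated mice (log2 0.63, SE 0.11, adjusted p = 0.0386). The mice of the 2 groups were apart for both genes. Removing the single cell with most UMIs of each gene gave an adjusted p of 0.0233 for Thbs1 and 0.239 for Apoe, and DESeq2 gave 0.252 for Thbs1 and 1.00 for Apoe. Across macrophages, Thbs1 changed by a log2 value above 0 in 14 of 14 clusters with a fit (median 0.85), with non-overlapping mice in 7. Apoe was above 0 in 15 of 15 (median 0.46), with non-overlapping mice in 7. In macrophages 49.7% of all tests had a change above 0 and 17.4% had both N297A mice higher, and 167 of 4068 genes (4.11%) had both higher in 7 or more clusters.

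Macrophage cluster 10 had 8 of the 17 calls, 3 higher and 5 lower in N297A. It held 28 and 36 cells in the N297A mice, against 44 and 49 cells in the Untreated mice. The genes that fell were Il1b, the cytokine interleukin-1β, Ccl3, a chemokine for monocytes and T cells, Ccr2, the chemokine receptor that monocytes follow into tumours, Gbp2b, an interferon-induced GTPase, and Dusp2, a phosphatase of MAP kinases. Arg1, Pf4 and Cxcl14, the last a chemokine of epithelium and some macrophages, rose. Ccl3 is also the leading gene of this cluster.

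Arg1 in cluster 10 had 80.0 and 109 CPM in the N297A mice, against 19 and 23.5 CPM in the Untreated mice (log2 2.12, SE 0.33, adjusted p = 0.000804). Il1b had 336 and 464 CPM in the N297A mice, against 882 and 848 CPM in the Untreated mice, and fell by 1.13 on the log2 scale (SE 0.19, adjusted p = 0.00133). The N297A mice were on 1 side of the Untreated mice for both genes, as for the other 6. Ccl3 had 215 and 305 CPM in the N297A mice, against 637 and 461 CPM in the Untreated mice (log2 -1.08, SE 0.20, adjusted p = 0.00861). Gbp2b had 59.5 and 39.3 CPM in the N297A mice, against 157 and 111 CPM in the Untreated mice (log2 -1.47, SE 0.28, adjusted p = 0.00861). Ccr2 had 52.6 and 37.4 CPM in the N297A mice, against 152 and 108 CPM in the Untreated mice (log2 -1.56, SE 0.29, adjusted p = 0.00620). For Ccr2, 1 cell gave 69.6% of the UMIs of N297A mouse 1. Dusp2 had 93.8 and 80.5 CPM in the N297A mice, against 220 and 159 CPM in the Untreated mice (adjusted p = 0.0193). Pf4 had 249 and 221 CPM in the N297A mice, against 135 and 98.3 CPM in the Untreated mice, and Cxcl14 101 and 84.2 CPM in the N297A mice, against 42.8 and 26.3 CPM in the Untreated mice (adjusted p = 0.0347 for each).

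Leaving out 1 mouse, which leaves 2 mice against 1, brought several calls of cluster 10 to an adjusted p above 0.05 while the changes kept their direction. Over the 4 omissions the log2 change ran from -1.43 to -0.88 for Il1b, from -1.41 to -0.83 for Ccl3, from -1.77 to -1.32 for Ccr2 and from 0.80 to 1.21 for Pf4. Without N297A mouse 1, the adjusted p was 0.0931 for Il1b, 0.146 for Ccl3, 0.070 for Pf4 and 0.151 for Cxcl14. Without Untreated mouse 1 it was 0.0833 for Ccr2 and Ccl3, 0.153 for Gbp2b and 0.528 for Dusp2, and without Untreated mouse 2 it was 0.617 for Pf4 and 0.595 for Cxcl14. Arg1 kept a log2 change of 1.83 to 2.35 over these omissions. Without the top cell of each gene, Il1b alone of these genes passed (adjusted p = 0.00403). In that setting Arg1 and Ccr2 had 0.0560, Gbp2b 0.0950, Dusp2 0.112, Pf4 0.155, Cxcl14 0.171 and Ccl3 0.411. With DESeq2, Il1b alone passed too (adjusted p = 0.0156), while Arg1 had 0.130, Ccl3 0.179, Ccr2 0.543 and Gbp2b 0.769. The 10 monocyte markers, Ccr2 among them, summed to 887 and 897 CPM in the N297A mice, against 924 and 962 CPM in the Untreated mice. The groups were apart, but the sum holds Ccr2 itself, at 52.6 and 37.4 CPM in the N297A mice, against 152 and 108 CPM in the Untreated mice. It therefore does not show that the other monocyte markers were lower. The part of these markers in the result was not tested.

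The counts that follow cover all clusters with a fit, so cluster 10 itself is among the macrophage clusters. Il1b and Ccl3 had the same direction in most of them. The log2 change was below 0 for Il1b in 11 of 15 clusters and for Ccl3 in 13 of 14. Both N297A mice were below both Untreated mice in 6 clusters for each gene, where 15.4% of all macrophage tests showed that pattern and 50.3% had a change below 0. Ccr2 was split in macrophages, with a change below 0 in 5 clusters and above 0 in 10. In monocytes Ccr2 was below 0 in 9 of 9 clusters, with non-overlapping mice in 3; there 49.7% of all tests were below 0 and 17.7% had both N297A mice lower. Arg1 was above 0 in 13 of 14 macrophage clusters with a fit, non-overlapping in 8, and in 8 of 8 monocyte clusters, non-overlapping in 4. These counts hold macrophage cluster 10 and monocyte cluster 1, where Arg1 was called. Of all macrophage tests, 49.7% were above 0 and 17.4% had both N297A mice higher. In monocytes those shares were 50.3% and 14.6%. The level of Arg1 differed widely between mice, as in macrophage cluster 4, with 298 and 77.1 CPM in the N297A mice, against 233 and 135 CPM in the Untreated mice. Over all macrophages Arg1 had 389 and 147 CPM in the N297A mice, against 139 and 114 CPM in the Untreated mice, so that N297A mouse 1 stood apart. Whole macrophages had 0 calls among 12622 genes (0%), with 413 at an unadjusted p under 0.05.

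**Figure D4:**
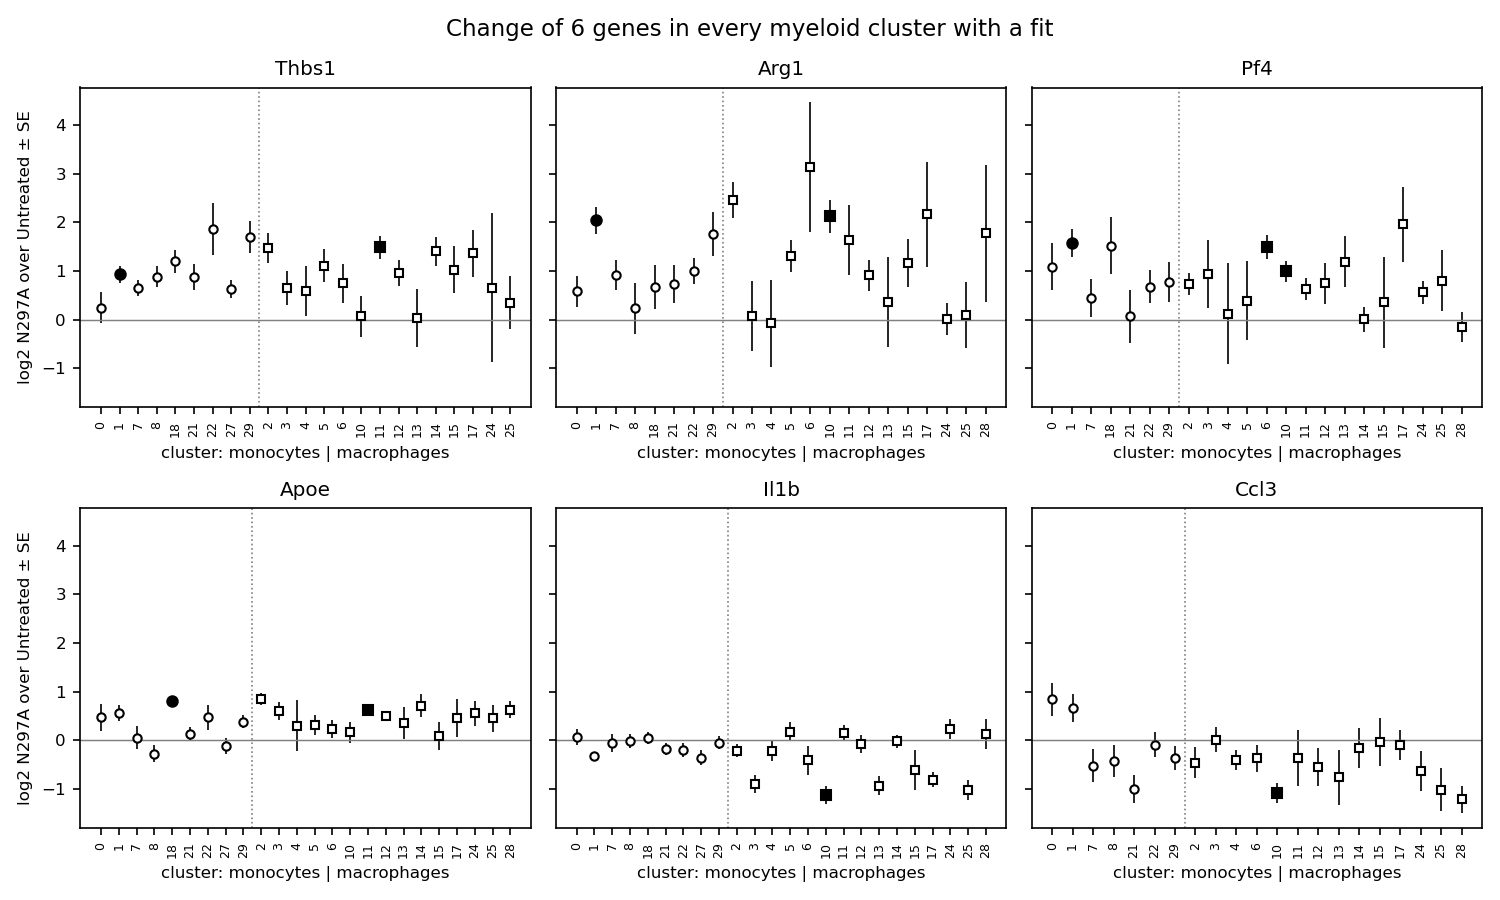
Log2 change, N297A over Untreated with its SE, of Thbs1, Arg1, Pf4, Apoe, Il1b and Ccl3 in every monocyte (circles, left) and macrophage cluster (squares, right of the dotted line) with a fit; filled symbols passed the threshold. Thbs1 lies above 0 in 9 of 9 monocyte and 14 of 14 macrophage clusters, and Ccl3 below 0 in 13 of 14 macrophage clusters.

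Pf4 also rose in macrophage cluster 6, a cluster led by Socs1, Serpina3g, Cxcl10, Iigp1, Gbp5 and Cxcl11, genes induced by interferon. It had 269 and 193 CPM in the N297A mice, against 98.7 and 65.6 CPM in the Untreated mice (log2 1.49, SE 0.25, adjusted p = 0.0325). The groups were apart, and the call was lost without the 5% of cells with most UMIs (adjusted p = 0.157). Pf4 changed by a value above 0 in 14 of 15 macrophage clusters, 8 of them with both N297A mice higher, and in 7 of 7 monocyte clusters with a fit, 5 of them with both higher. Among all tests that pattern had a share of 17.4% in macrophages and 14.6% in monocytes, and 88 of 4068 genes (2.16%) tested in all 15 macrophage clusters showed it in 8 or more. Spread between mice was large for this gene: in macrophage cluster 12, where it is a leading gene, it had 2755 and 1336 CPM in the N297A mice, against 1203 and 1243 CPM in the Untreated mice (adjusted p = 0.864).

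Macrophage cluster 12, led by Gpnmb, Pf4, Fabp5, Ccl8 and F13a1, genes of lipid-handling and resident-like macrophages, had 1 call. Cxcl10, an interferon-induced chemokine that draws CXCR3-bearing T and NK cells, fell there. It had 148 and 197 CPM in the N297A mice, against 482 and 430 CPM in the Untreated mice (log2 -1.42, SE 0.19, adjusted p = 0.0172). The mice were well apart, and each omission of 1 mouse kept the call. Without the top cell of each gene the adjusted p was 0.131, and without the 5% of cells with most UMIs it was 0.0527. The change was above 0 in 12 of 15 macrophage clusters and below 0 in cluster 12 and in clusters 6 and 13. In cluster 6 Cxcl10 had 2019 and 2188 CPM in the N297A mice, against 1841 and 2776 CPM in the Untreated mice (log2 -0.12). In cluster 13 it had 949 and 786 CPM in the N297A mice, against 701 and 1167 CPM in the Untreated mice (log2 -0.14), and mice overlapped in both. The joint test of differences between macrophage clusters did not pass for Cxcl10 (adjusted p = 1.00), so its change is not shown to differ between them. In cluster 15 Cxcl10 had 188 and 381 CPM in the N297A mice, against 128 and 85.7 CPM in the Untreated mice (log2 1.41, SE 0.38, adjusted p = 0.966).

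In monocyte cluster 18, led by Ifitm1, P2ry10 and Il1r2, Apoe rose. It had 5293 and 5404 CPM in the N297A mice, against 3041 and 3100 CPM in the Untreated mice (log2 0.82, SE 0.10, adjusted p = 0.0171). Mice within a group differed by far less than the groups, though without N297A mouse 1 the adjusted p was 0.211. The cluster held 28 and 26 cells in the N297A mice, against 40 and 40 cells in the Untreated mice. The 10 macrophage markers summed to 12355 and 14317 CPM in the N297A mice, against 8272 and 10317 CPM in the Untreated mice. These were apart, but the sum holds Apoe itself and so does not show that the markers as a whole moved. The 9 other than Apoe summed to 7062 and 8913 CPM in the N297A mice, against 5231 and 7217 CPM in the Untreated mice, and overlapped. Their part in the result was not tested. Over all monocyte clusters with a fit, cluster 18 included, Apoe was above 0 in 7 of 9, where 50.3% of all monocyte tests were above 0. In cluster 8 both N297A mice were lower.

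The largest of the 17 changes was in NK cells. Cxcl10 rose in NK cluster 19, a cluster led by the type I interferon response genes Mx1, Ifi204, Ifi208, Ifit2 and Ifi209. It had 646 and 521 CPM in the N297A mice, against 38.9 and 91.6 CPM in the Untreated mice, from 159 and 121 UMIs in the N297A mice, against 11 and 19 UMIs in the Untreated mice. The groups were far apart, with a log2 change of 3.26 (SE 0.29, adjusted p = 1.48e-07). At least 1 Cxcl10 UMI was found in 17 of 40 and 18 of 40 cells of the N297A mice, against 9 of 47 and 11 of 36 cells of the Untreated mice. The cell with most Cxcl10 UMIs held 30.2% and 28.9% of them in the N297A mice, against 18.2% and 26.3% in the Untreated mice. This call passed under each alternative tried, with adjusted p = 4.33e-06 without the top cell of each gene. The NK markers summed to 11435 and 14274 CPM in the N297A mice, against 11927 and 14191 CPM in the Untreated mice, and overlapped. Macrophage markers summed to 898 and 900 CPM in the N297A mice, against 756 and 848 CPM in the Untreated mice, which were apart. The 9 other than Apoe summed to 553 and 538 CPM in the N297A mice, against 442 and 448 CPM in the Untreated mice, also apart. All 10 macrophage markers were detected in NK cells, and their part in the result was not tested.

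The other NK clusters did not show this. Cxcl10 had 81.8 and 24.0 CPM in the N297A mice, against 15.2 and 114 CPM in the Untreated mice of cluster 20. In cluster 26 it had 79.4 and 95.4 CPM in the N297A mice, against 144 and 28.8 CPM in the Untreated mice. Mice of the 2 groups overlapped in both, and the test of the difference between the 3 clusters did not pass (adjusted p = 1.00), so the change is not shown to differ between NK clusters. A direct test of cluster 19 against macrophage cluster 12 did pass, but the pair was chosen after its opposite calls were seen. On the same 4 mice, its p-value therefore adds no support to those 2 calls. The log2 ratio of the Cxcl10 level in NK cluster 19 to that in macrophage cluster 12 was 2.12 and 1.40 in the N297A mice, against -3.63 and -2.23 in the Untreated mice (adjusted p = 3.85e-44, and 3.13e-07 without the top cell of each gene). The fit pools the spread over genes, and the mice behind these p-values number 2 per group.

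**Figure D5:**
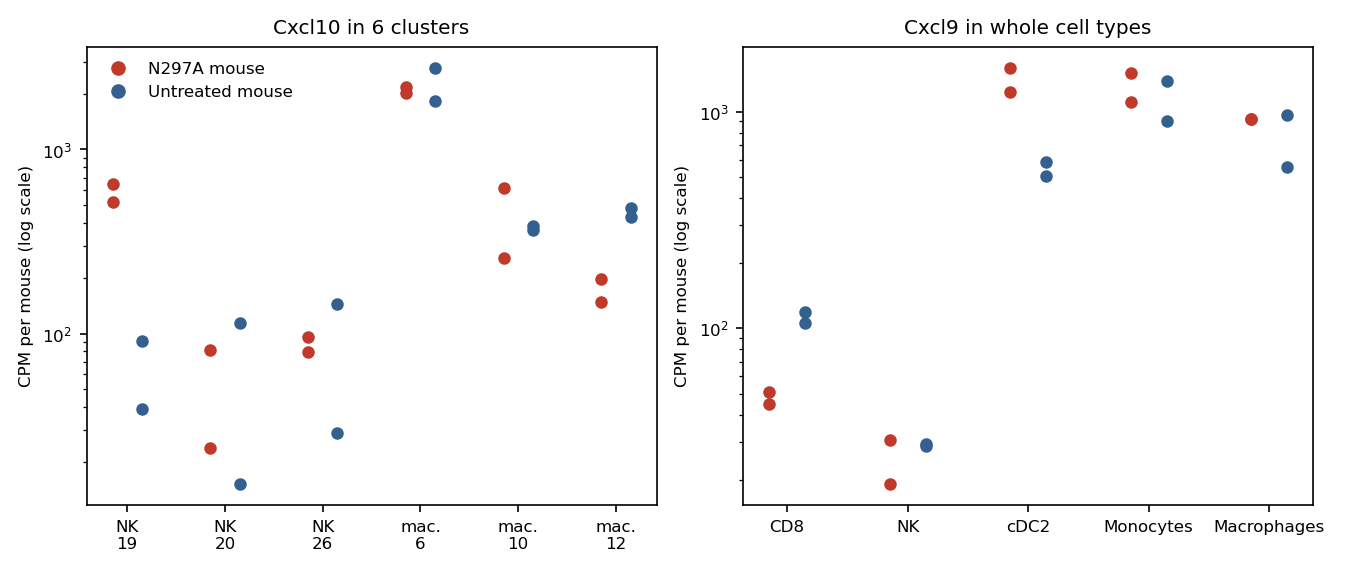
Left, Cxcl10 level in CPM on a log scale in NK clusters 19, 20 and 26 and macrophage clusters 6, 10 and 12; right, Cxcl9 level in whole cell types; 1 point per mouse, N297A left of Untreated. Cxcl10 is higher in N297A in NK cluster 19 and lower in macrophage cluster 12, and Cxcl9 is higher in N297A in cDC2 and lower in CD8 T cells.

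Differences of the N297A change between clusters of a type were tested jointly for each gene. None of 8656 genes passed in macrophages (0%) and none of 6956 in monocytes (0%), while 1 of 5227 passed in NK cells (0.0191%). At an unadjusted p under 0.05 were 4.42% of genes in macrophages, 4.14% in monocytes and 3.86% in NK cells. For the genes called in macrophages or monocytes the adjusted p of this test lay between 0.862 and 1.00, so a call in 1 cluster and not in another does not show that the clusters differ. The NK gene was Ccl1, a chemokine of activated T cells. It had 73.2 and 0 CPM in the N297A mice, against 0 and 0 CPM in the Untreated mice of cluster 19, all 18 UMIs being in 1 cell. In cluster 20 it had 0 and 0 CPM in the N297A mice, against 0 and 207 CPM in the Untreated mice, from 102 UMIs in 4 cells. The adjusted p of 0.000195 thus rested on a few cells of 2 mice: without N297A mouse 1 or without Untreated mouse 2 it was 1.00.

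Among whole cell types, Cxcl9 was the only gene past the threshold, in opposite directions in CD8 T cells and cDC2. Cxcl9 is an interferon-gamma-induced chemokine that draws the same CXCR3-bearing cells as Cxcl10. In CD8 T cells it had 44.7 and 50.7 CPM in the N297A mice, against 106 and 119 CPM in the Untreated mice (log2 -1.21, SE 0.18, adjusted p = 0.0104; 1 of 8989 genes, 0.0111%). In cDC2 it had 1232 and 1590 CPM in the N297A mice, against 502 and 587 CPM in the Untreated mice (log2 1.33, SE 0.20, adjusted p = 0.0412; 1 of 4747 genes, 0.0211%). The groups were apart in both types. The test of cDC2 against CD8 T cells passed (adjusted p = 1.98e-05), though not without N297A mouse 1. This pair too was chosen after its opposite calls were seen, so the test adds no support to them. In CD8 T cells 1 cell of Untreated mouse 1 held 89 of that mouse's 193 Cxcl9 UMIs, and without Untreated mouse 2 the adjusted p was 0.233. In cDC2 it was 0.722 without N297A mouse 2 and 0.143 without Untreated mouse 1. Whole NK cells had 0 calls among 8410 genes (0%), with 289 at an unadjusted p under 0.05. Apoe had 284 and 218 CPM there in the N297A mice, against 465 and 451 CPM in the Untreated mice (log2 -0.89, SE 0.13, adjusted p = 0.053). In Untreated mouse 1, 239 of the 712 Apoe UMIs of NK cells came from 1 cell. Over whole macrophages (log2 0.53) and monocytes (log2 0.39) both N297A mice were higher for Apoe, also without passing.

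Followed into clusters, Cxcl9 in cDC2 was higher in both N297A mice in the 2 larger clusters. In cluster 36 it had 2119 and 2165 CPM in the N297A mice, against 678 and 1215 CPM in the Untreated mice. In cluster 46 it had 594 and 982 CPM in the N297A mice, against 404 and 418 CPM in the Untreated mice. With every mouse given the same mix of cDC2 clusters, the level was 1200 and 1391 CPM in the N297A mice, against 501 and 733 CPM in the Untreated mice, still apart. Macrophage markers summed to 1889 and 3836 CPM in the N297A mice, against 2228 and 753 CPM in the Untreated mice of cluster 36, and overlapped. Macrophage markers in whole CD8 T cells summed to 716 and 1061 CPM in the N297A mice, against 1066 and 833 CPM in the Untreated mice, and overlapped. The 9 other than Apoe summed to 437 and 682 CPM in the N297A mice, against 552 and 578 CPM in the Untreated mice, and overlapped too. Of the genes called in clusters, Il1b, Pf4 and Ccl3 were lower in both N297A mice in whole CD8 T cells, without passing the threshold. The others overlapped, as Apoe did with 279 and 379 CPM in the N297A mice, against 514 and 255 CPM in the Untreated mice. Il1b had 60.1 and 24.4 CPM in the N297A mice, against 77.6 and 81.1 CPM in the Untreated mice, and Pf4 8.17 and 8.46 CPM in the N297A mice, against 11.6 and 13.9 CPM in the Untreated mice (adjusted p = 1.00 for each). In CD8 cluster 16 the 9 macrophage markers other than Apoe summed to 330 and 373 CPM in the N297A mice, against 375 and 406 CPM in the Untreated mice, which were apart. In cluster 23 all 10 summed to 870 and 831 CPM in the N297A mice, against 1288 and 2047 CPM in the Untreated mice, also apart. Their part in the Cxcl9 result was not tested. Cxcl9 in CD8 T cells overlapped between mice in clusters 16, 33, 38 and 44 and was apart in cluster 23 alone. CD8 cluster 16, the largest, had 16.3 and 30.5 CPM in the N297A mice, against 22.8 and 156 CPM in the Untreated mice (log2 -1.71, SE 1.14, adjusted p = 1.00).

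GITR itself, the target of the antibody, did not pass in CD8 cluster 16 or in the 3 NK clusters, the lymphocyte clusters with enough cells for a test. Tnfrsf18 was most abundant in Tregs, at 1218 and 871 CPM in the N297A mice, against 915 and 929 CPM in the Untreated mice. The Treg values overlapped. CD4 cluster 59 followed, with 681 and 557 CPM in the N297A mice, against 536 and 458 CPM in the Untreated mice, which were apart. CD8 cluster 16 had 345 and 257 CPM in the N297A mice, against 220 and 281 CPM in the Untreated mice (log2 0.35, adjusted p = 1.00). NK clusters lay lower: cluster 19 had 163 and 146 CPM in the N297A mice, against 173 and 178 CPM in the Untreated mice (log2 -0.15). NK cluster 26 had 79.4 and 121 CPM in the N297A mice, against 124 and 166 CPM in the Untreated mice (log2 -0.49). In both of these clusters the N297A mice were the lower ones, and in NK cluster 20 the groups overlapped.

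Gene lists were described in the same clusters by counting members. In macrophage cluster 10, the list of inflammatory cytokines and chemokines had 4 members with a higher and 10 with a lower fitted level in N297A of 14 tested (median log2 -0.27), of which Il1b and Ccl3 passed. Over all macrophage clusters, that list had 30 tests at an unadjusted p under 0.05 in the lower and 15 in the higher direction among 205, or 14.6% and 7.32%. Of all macrophage tests, 1.95% were at that level in the lower and 2.56% in the higher direction, and of all monocyte tests 1.66% and 2.34%. The MHC class II list had 9 lower (8.41%) and 0 higher at that level among 107 tests in macrophages, and 1 lower (1.52%) and 6 higher (9.09%) among 66 in monocytes. No member of it passed in any cluster. In the list of arginine and tumour-promoting myeloid genes, 6 of 8 members had a higher level in monocyte cluster 1, with Arg1 and Thbs1 past the threshold. For this list 18 macrophage tests (15%) lay in the higher and 7 (5.83%) in the lower direction at an unadjusted p under 0.05 among 120. In monocytes 16 (19.3%) lay in the higher and 2 (2.41%) in the lower direction among 83. A gene is counted once per cluster, and these counts rest largely on the 2 called genes. At that level Thbs1 had 8 monocyte and 6 macrophage tests, all higher. Arg1 had 4 monocyte tests, all higher, and 5 macrophage tests.

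Interferon-gamma response genes were counted in the same way, and differences between clusters were not tested for the list. In NK cluster 19, 16 of 18 tested members had a higher fitted level in N297A (median log2 0.46), with Cxcl10 past the threshold and 4 higher at an unadjusted p under 0.05, a level and direction that 2.24% of all genes of the cluster had. Macrophage cluster 12 had 4 higher and 17 lower of 21 (median log2 -0.14), with Cxcl10 past the threshold. Over all macrophage clusters 22 tests (6.43%) were in the higher and 5 (1.46%) in the lower direction at that level among 342, and in monocytes 24 (11.8%) and 3 (1.47%) among 204. The lipid-associated macrophage list, with Apoe past the threshold in macrophage cluster 11 and monocyte cluster 18, had 29 higher (14.3%) and 11 lower (5.42%) among 203 macrophage tests. The median log2 change of all genes of a cluster lay between -0.012 and 0.0093. Since the clusters share mice, these counts describe the 4 mice and carry no test of their own.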

How the data were processed

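The authors' deposited matrix holds raw UMI counts per feature and barcode for 1 library, made with Cell Ranger 9.0.0 per the file headers, with GRCh38 and GRCm39 as the builds that the submitters' processing notes name. The deposited cell table gives a treatment, cell type and cluster number per barcode. Filtering, demultiplexing, clustering and any doublet removal by the authors are not given in the sources used here, and no doublet caller was run.

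From these, mouse-gene counts were summed per mouse and cluster (20 or more cells in each of the 4 mice) and fitted with edgeR 4.0.16 (R 4.3.3, limma 3.58.1): filterByExpr, TMM, robust quasi-likelihood test, Benjamini-Hochberg within a cluster, threshold 0.05. Cluster shares were fitted on cell numbers with the mouse's cells of that type as offset. Differences between clusters were tested with mouse as a block. Alternatives were DESeq2 1.42.0, other scalings, filters, cell subsets and omission of each mouse. The scripts were tested on simulated data. Levels are CPM, and SE is the log2 change divided by the root of F.

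Named genes are those past the threshold in a cluster whose groups do not overlap and whose higher group reaches 10 CPM, Tnfrsf18 and list members past the threshold. Leading genes of a cluster are up to 6 with the largest ratio to its sister clusters. The 18 gene lists and 17 marker lists, the clusters and the tests were chosen with earlier results of these data known. Sequences and positions are not given, since the genome at hand is of another build.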

Additional observations from a re-analysis of the deposited data

Results flagged for a closer look

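In NK cells the N297A change of Ccl1 differed between clusters 19, 20 and 26 (adjusted p = 0.000195), with UMIs found in 1 cell of N297A mouse 1 in cluster 19 and 4 cells of Untreated mouse 2 in cluster 20.

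The N297A change of Cxcl10 differed between NK cluster 19 and macrophage cluster 12 (adjusted p = 3.85e-44), every N297A mouse having the higher level in the NK cells and every Untreated mouse in the macrophages. The pair was picked after its opposite calls were seen, so this p-value adds no support to them.

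The N297A change of Cxcl9 differed between cDC2 and CD8 T cells (adjusted p = 1.98e-05), with log2 ratios of cDC2 to CD8 level of 4.78 and 4.97 in the N297A mice, against 2.24 and 2.30 in the Untreated mice. This pair was picked in the same way, and the same limit holds.

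Among table entries outside the library, which no comparison by mouse uses, N297A minus Untreated differed by -3.59 percentage points for macrophage cluster 2, -3.4 for cluster 6 and 4.47 for cluster 9, with counting intervals apart. With 54 clusters compared and no mouse known for these entries, the spread between mice behind these differences is not known.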

How the results depend on the processing

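No cluster share passed under any alternative tried (0 of 53 or 54 clusters), with 0 to 5 clusters at an unadjusted p under 0.05. The 17 gene calls within clusters became 8 with DESeq2, 300 with no filter on low counts, 49 with all 6 mice in the fit, 28 with cells whose top hashtag held 90% or more, 32 without the top cell of each gene, 4 with 1 adjustment over all clusters and 3 in clusters of 50 cells per mouse. Omitting 1 mouse gave 228 to 638 calls, a fit with 1 residual degree of freedom fewer, in which the lone mouse is assumed to vary like the others. DESeq2 kept 5 of the 17 calls and removal of the top cell kept 7. Of 221 alternative values of the 17 calls, 178 passed, 43 did not and 0 reversed, and 7 calls passed without any 1 mouse. The single call between clusters became 119 with no filter, 0 without the top cell of each gene (an alternative chosen after seeing the data) and 8 to 25 without 1 mouse. The 2 calls in whole cell types became 5 with all 6 mice and 11 to 159 without 1 mouse. The cause of these shifts was not tested. The chosen minimum of 20 cells in each mouse limits the expression tests within clusters to 28 of 58 clusters. It leaves out every cluster of Tregs, CD4 T cells, cDC1, cDC2, mregDC and pDC, and 4 of 5 CD8 clusters. Of the other types, 15 of 24 macrophage, 9 of 15 monocyte and 3 of 5 NK clusters were tested. No paired analysis was possible because hashtag numbers do not tie mice of different treatments together.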

Other observations

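Genes outside the naming rule, chosen after their values were seen, recurred over clusters without passing in any. Spint1, which encodes a protease inhibitor of epithelium, had both N297A mice above both Untreated mice in 9 of 9 monocyte clusters and 12 of 15 macrophage clusters. Of all tests, 14.6% in monocytes and 17.4% in macrophages showed that pattern. It was found in 8 or more clusters for 3 of 3520 genes (0.0852%) in monocytes and 88 of 4068 (2.16%) in macrophages. Over all monocytes it had 149 and 129 CPM in the N297A mice, against 80.0 and 79.6 CPM in the Untreated mice (log2 0.83, SE 0.11, adjusted p = 0.0965). Over all macrophages it had 88.2 and 68.3 CPM in the N297A mice, against 49.5 and 34.9 CPM in the Untreated mice (adjusted p = 0.999).

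Of 4068 genes tested in all 15 macrophage clusters, 6 (0.147%) had an unadjusted p under 0.05 in at least 8: Abca1, Apoc2, Ccl8, Lmna, Pid1 and Spint1. Apoc2, an apolipoprotein that activates lipoprotein lipase, had 143 and 128 CPM in the N297A mice, against 86.2 and 64.0 CPM in the Untreated mice over all macrophages. It was above 0 in 15 of 15 clusters. Ccl8, a chemokine for monocytes, had 167 and 121 CPM in the N297A mice, against 77.2 and 41.4 CPM in the Untreated mice. Pid1 had 559 and 524 CPM in the N297A mice, against 373 and 409 CPM in the Untreated mice. None passed over all macrophages (adjusted p = 0.999 for each), and clusters share mice.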
